A study of Mus musculus with 3 samples.

Results

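The membrane-spanning 4-domain subfamily A (Ms4a) genes were followed through the cells of an experimental mouse glioma by taking the 8 features whose symbol is Ms4a1, Ms4a4b, Ms4a4c, Ms4a6b, Ms4a6c, Ms4a6d, Ms4a7 or Ms4a8a, of 31053 features measured. The study mapped immune cells of this tumor, and the libraries here set mice given niacin (vitamin B3) beside mice given vehicle. The grafts were BT0309 brain tumor-initiating cells, a line generated from NPcis mice (Trp53+/-/Nf1+/-). They were implanted in the right striatum of female C57BL/6 mice of 6 to 8 weeks, so every animal carried a graft of the same line. Niacin at 100 mg/kg or saline vehicle was injected intraperitoneally each day from day 7, and brains were collected at week 4, pooled within a group, enriched for immune cells on Percoll, sorted for live cells and profiled by droplet 3′ single-cell RNA sequencing. The 3 libraries used here were vehicle replicate 2, niacin replicate 1 and niacin replicate 2. Each is a pool, of 5 mice by the study's methods and of 4 brain tissues by the sample labels, and values are given below in the order vehicle replicate 2, niacin replicate 1, niacin replicate 2 unless stated. With a single vehicle library, which gives no spread of its own, niacin was not tested against vehicle. The tests below compare cell classes within the same libraries.

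Ms4a proteins cross the membrane several times and often sit beside immune receptors whose surface level or signalling they adjust. The best known are Ms4a1, the B cell surface protein CD20, and Ms4a2, the beta chain of the high-affinity IgE receptor of mast cells and basophils. Ms4a4b is a T cell and natural killer cell protein that associates with the co-stimulatory receptor GITR, encoded by Tnfrsf18, whereas the Ms4a6 genes, Ms4a4c, Ms4a7 and Ms4a8a are mostly described in monocytes and macrophages, Ms4a7 being widely used as a marker of the macrophages at the borders of the brain.

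The 8 genes lie within 537 kb on mouse chromosome 19 (chr19:11067471-11604849, GRCm38, GENCODE M21), inside a cluster of 19 annotated Ms4a genes that runs from Ms4a10 to Ms4a3 (chr19:10962293-11640851). Along the chromosome the members come in the order Ms4a8a, Ms4a1, Ms4a7, Ms4a4c, Ms4a4b, Ms4a6c, Ms4a6b and Ms4a6d, with Ms4a8a, Ms4a1, Ms4a7 and Ms4a6d on the minus strand and the others on the plus strand. Ms4a4c (chr19:11404770-11427246) ends 16.3 kb before Ms4a4b (chr19:11443553-11467055), and Ms4a6c starts 2.3 kb after Ms4a4b. Of the 8 members, 6 had an entry in the RefSeq promoter table (GRCm38.p6), and the windows of the neighbours Ms4a4b and Ms4a4c are shown because these adjacent genes had high levels in different cells, Ms4a4b in T cell-like and natural killer cell-like and Ms4a4c in classical monocyte-like cells. The 195 bases shown end shortly before each RefSeq transcript start, on the plus strand, and the capitals mark the letters GAGGAA, which hold the core of the motif bound by the myeloid and lymphoid factor PU.1.
Ms4a4b promoter, chr19:11443358-11443552: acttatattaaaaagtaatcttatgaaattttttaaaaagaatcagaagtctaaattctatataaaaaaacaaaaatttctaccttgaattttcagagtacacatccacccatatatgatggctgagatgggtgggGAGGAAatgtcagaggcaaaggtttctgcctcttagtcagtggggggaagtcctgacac
Ms4a4c promoter, chr19:11407461-11407655: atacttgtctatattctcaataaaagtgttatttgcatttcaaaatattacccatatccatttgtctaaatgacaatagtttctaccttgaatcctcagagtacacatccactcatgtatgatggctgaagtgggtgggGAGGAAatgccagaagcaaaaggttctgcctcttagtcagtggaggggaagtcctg
With gap columns counted, the 2 windows were 73.8% identical over 210 alignment columns, and the other pairs of members' windows were 39.0% to 53.1% identical. The longest run of shared bases was 20 in this pair. It was 44 in Ms4a6b and Ms4a6c, where the run ends the Ms4a6c window but lies further upstream in the Ms4a6b window. The 39.0% of that pair is 106 identical bases over 272 columns, many of them gaps. It therefore does not rank these 2 windows as the least alike. Searched on both strands, GAGGAA occurred once in each of the Ms4a4b and Ms4a4c windows and in none of the 5 other windows of members. Of the 32851 RefSeq windows of the same length, 18.5% held it. A match of letters says nothing about binding. The Ms4a4c window lies in an intron of a shorter GENCODE transcript of that gene that starts further upstream. In the last 500 bases of the members' transcripts, at most 2.75% of the 91-base windows (those of Ms4a4c) recurred exactly in another Ms4a gene. Of the 31-base windows, 20.8% of Ms4a4c, 12.9% of Ms4a6c, 11.4% of Ms4a6b and 4.40% of Ms4a4b did, so some reads of these neighbours could be split or lost by the counting.

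The libraries held 2270, 2145 and 2532 cell barcodes with 8301228, 9373321 and 10359526 unique molecular identifiers (UMIs). After cells with under 200 genes or over 20% mitochondrial UMIs were left out, 1514, 1811 and 2203 cells remained, and each took the class with the most of its fixed marker genes detected, none of which is an Ms4a gene. The same barcode sequence often occurred in more than 1 library. Of the 5528 cells kept, 2050 had a barcode that was shared, and in the vehicle and niacin replicate 1 pair the deeper copy had a median of 12212 UMIs against 645 in the shallower. The sharing was uneven over classes. Of the classical monocyte-like cells, 110 of 263, 100 of 103 and 99 of 108 had a shared barcode, so that 153, 3 and 9 remained without them. In the niacin libraries, 78 and 74 of these cells had the deepest copy of their barcode in the vehicle library, as did 91 of 188 and 83 of 187 cells of the joined monocyte- and macrophage-like class. Whether such shallow copies are cells of their own library was not tested, and where they are not, the libraries are not independent replicates of these classes and p-values are too small. The median depth of these cells was 2898 UMIs in the vehicle library but 705 and 802.5 in the niacin libraries, and the top 10 genes of the class held 1 of its own markers (F13a1) and 1 macrophage marker (Fn1) beside Ms4a4c itself. The name of the class thus rests on its fixed markers, and of its 474 cells 158 had only 2 of them. Tests that rest on it are also given without shared barcodes, and for the comparison with microglia-like cells it was joined with the nonclassical monocyte-like and macrophage-like cells and with 45 cells tied between these lists. The classes tested held 2532 microglia-like cells, 717 cells of the joined monocyte- and macrophage-like class, 546 T cell-like and 109 B cell-like cells.

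Ms4a1 was a gene of B cell-like cells in these tumors. Of its 596 UMIs in cells kept, 543 (91.1%) came from the 109 B cell-like cells, with 18 in microglia-like and 14 in plasma cell-like cells. Its level in B cell-like cells was 671, 1133 and 1285 CPM (the usual scaling of a gene's UMIs to the sum of all UMIs of the class), and these were the highest of all classes in each library. In T cell-like cells the level rested on 1, 1 and 3 UMIs, at 0.956, 1.45 and 3.16 CPM. No library overlapped between the 2 classes, and the difference was 8.96 ± 0.37 (log2 fold change ± SE; adjusted p = 1.27e-13, edgeR quasi-likelihood test with the library as a block). With every cell thinned to 1000 UMIs, 10 of 18, 16 of 30 and 28 of 43 B cell-like cells had an Ms4a1 UMI, which is 55.6%, 53.3% and 65.1% with exact binomial 95% intervals of 30.8% to 78.5%, 34.3% to 71.7% and 49.1% to 79.0%. Unthinned, the shares were 71.4%, 73.7% and 86.0%. Choroid plexus-like cells, an epithelial class that should lack these genes, had no Ms4a1 UMI after thinning (0 of 43, 0 of 129 and 0 of 156 cells). At these numbers a floor of 3 cells with a UMI would be 6.98%, 2.33% and 1.92%, which is not an exact binomial limit. The unthinned median depths of these cells were 4422, 7038 and 4001 UMIs. Unthinned, they held 1 Ms4a1 UMI, in niacin replicate 2 (1.10 CPM).

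**Figure D1:**
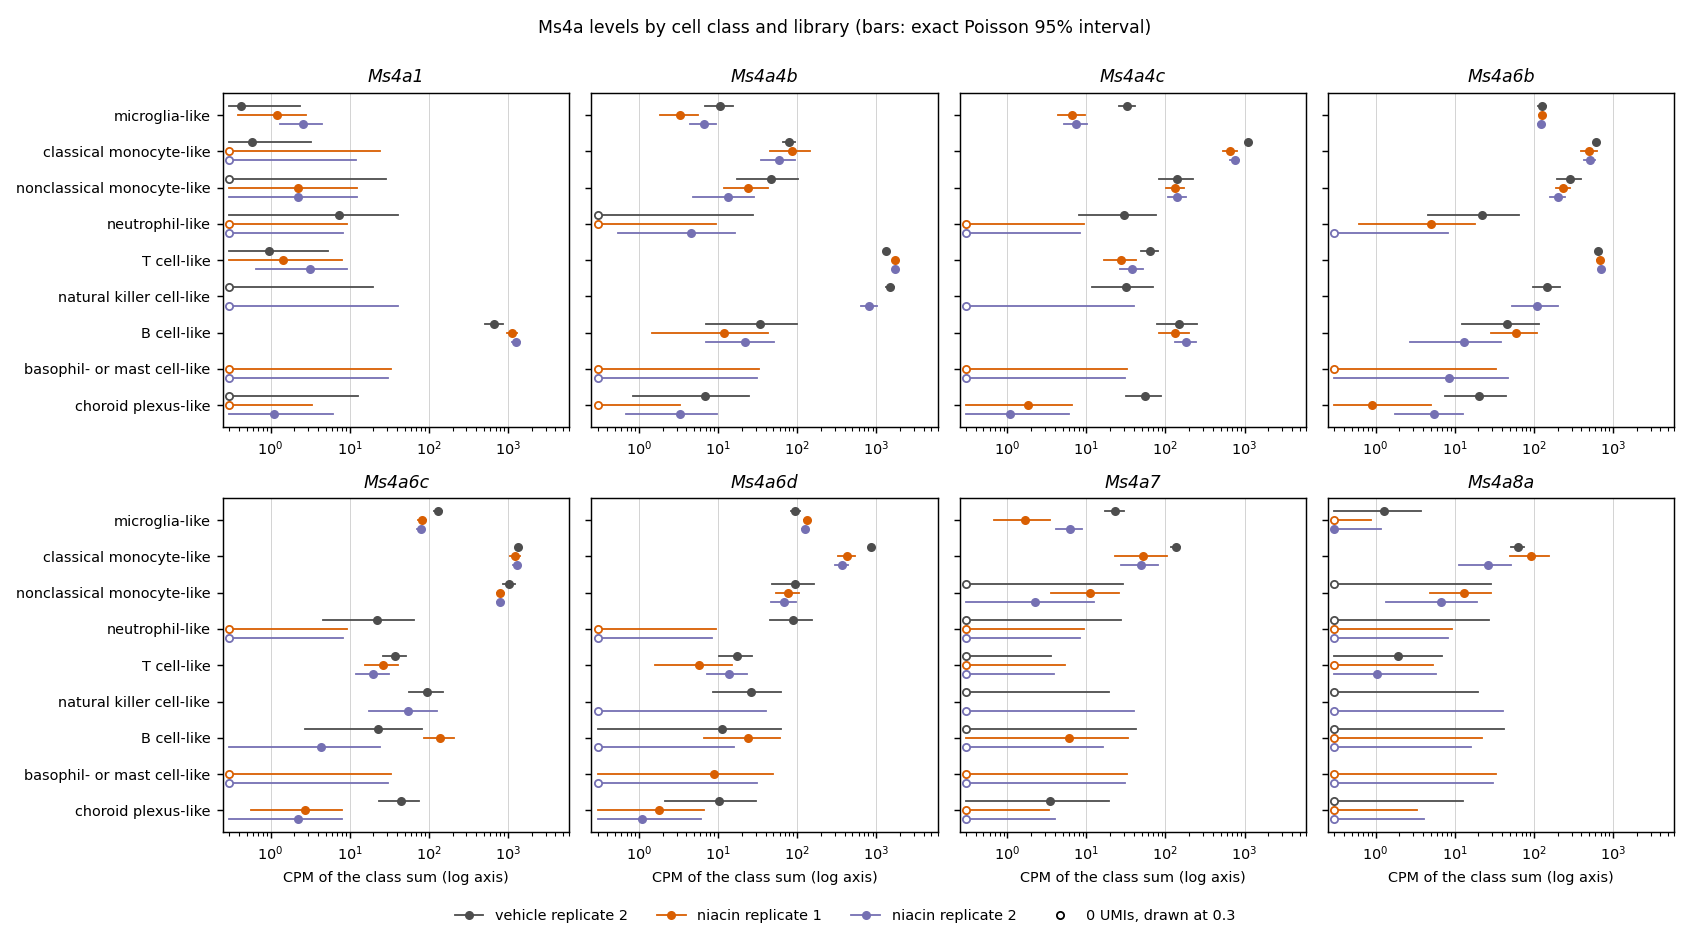
Level of each of the 8 members (CPM, log axis, open symbols at the lower edge for 0 UMIs) in 9 cell classes, with 1 point per library for vehicle replicate 2, niacin replicate 1 and niacin replicate 2. Ms4a1 stands highest in B cell-like cells, Ms4a4b in T cell-like and natural killer cell-like cells, and Ms4a4c, Ms4a6c, Ms4a6d, Ms4a7 and Ms4a8a, among these classes, in classical monocyte-like cells (border-associated macrophage-like cells, with more Ms4a7, are not plotted), with Ms4a6b high in both T cell-like and classical monocyte-like cells.

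Ms4a4b was the lymphoid member of T cell-like and natural killer cell-like cells. T cell-like cells held 80.6% of its 5227 UMIs and natural killer cell-like cells 7.86%, at levels of 1340.3, 1715 and 1715 CPM in T cell-like and 1500.1, 2267 and 823 CPM in natural killer cell-like cells. Other classes were far lower, with 80.2, 85.8 and 59.2 CPM in classical monocyte-like, 47.2, 24.2 and 13.3 CPM in nonclassical monocyte-like, 34.1, 12.1 and 21.7 CPM in B cell-like and 10.6, 3.34 and 6.59 CPM in microglia-like cells. After thinning, 60.1%, 71.1% and 78.5% of T cell-like cells had an Ms4a4b UMI, against 0%, 0% and 0.641% of choroid plexus-like cells. Among the deeper natural killer cell-like cells, 41 of 61 in the vehicle library (67.2%) and 7 of 14 in niacin replicate 2 had one.

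Ms4a6b, a close relative that is likewise reported in T cells, was shared between T cell-like and myeloid cells. T cell-like cells held 34.5% of its 5343 UMIs, microglia-like cells 26.4% and classical monocyte-like cells 23.8%. These classes made up 9.88%, 45.8% and 8.57% of the cells kept. Its level was 658, 691 and 711 CPM in T cell-like cells (687 ± 27.0, SD, n = 3), 607, 502 and 513 CPM in classical monocyte-like cells, 283, 235 and 202 CPM in nonclassical monocyte-like cells and 127.0, 126.6 and 123.7 CPM in microglia-like cells. This order held in every library, and the SD over the 3 libraries in microglia-like cells was only 1.82 CPM. In B cell-like cells Ms4a6b was at 45.5, 60.3 and 13.03 CPM.

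Against T cell-like cells, B cell-like cells differed in 4 of the 5 members tested. Besides Ms4a1, Ms4a4c was higher in B cell-like cells, at 148, 133 and 182 CPM against 63.1, 27.5 and 37.9 CPM (log2 fold change 1.97 ± 0.32, adjusted p = 6.14e-05, edgeR). Ms4a4b fell by 6.22 ± 0.36 and Ms4a6b by 4.21 ± 0.35 on the log2 scale (adjusted p = 1.82e-11 and 5.66e-09, edgeR). Ms4a6c did not pass, at 0.88 ± 0.55 (adjusted p = 0.342, edgeR). Of the 5940 genes tested, 18.8% were called, 8.62% higher and 10.2% lower in B cell-like cells, and the median log2 fold change was 0.88 over the 5 members and -0.02 over all genes. Without shared barcodes the 4 calls kept their direction and size, with values of 8.79, 2.06, -6.32 and -4.40 for Ms4a1, Ms4a4c, Ms4a4b and Ms4a6b. Of the partner genes listed with these members, Cd40, a co-stimulatory receptor, was higher in B cell-like cells (fitted log2 fold change 8.44). Cd22, an inhibitory receptor of B cells, was also higher (fitted log2 fold change 7.62). T cell-like cells held 0 UMIs of Cd40 and 2 of Cd22, so the direction of these differences was measured but not their size. Tnfrsf18 was lower by 3.93 (log2 fold change -3.93). Tyrobp, a signalling adaptor of myeloid and natural killer cells, was called higher at 1.20, but not without shared barcodes (adjusted p = 0.309, edgeR). Cr2, a complement receptor of mature B cells, was measured in B cell-like cells at 136, 18.1 and 99.9 CPM.

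Within T cell-like cells, those with Cd4 UMIs and those with Cd8a or Cd8b1 UMIs differed in Ms4a4c, while Ms4a6b showed no difference past its error. Ms4a6b was at 661, 785 and 813 CPM in CD4 and at 693, 743 and 720.3 CPM in CD8 T cell-like cells, and the difference was -0.01 ± 0.14 (adjusted p = 0.993, edgeR), on 41 to 75 cells per library and class. Ms4a4c was at 35.7, 10.6 and 10.7 CPM in CD4 against 71.3, 44.2 and 61.0 CPM in CD8 T cell-like cells, which did not overlap (log2 fold change -1.68 ± 0.42, adjusted p = 0.00817, edgeR), and its adjusted p ran from 0.00292 to 0.912 over the alternative settings. These Ms4a4c levels rest on few counts, 18 UMIs in all 151 CD4 and 60 UMIs in all 188 CD8 T cell-like cells. Ms4a4b was lower in CD4 than in CD8 T cell-like cells in every library, at 1254, 1734 and 1619 CPM against 1656, 2082 and 2120.3 CPM, but did not pass the test (-0.42 ± 0.14, adjusted p = 0.081, edgeR). Without shared barcodes it did, at -0.44 (adjusted p = 0.0382, edgeR). Of the 3 members tested 1 was called, against 5.37% of 4410 genes, 3.04% higher and 2.34% lower. Tnfrsf18, the receptor that Ms4a4b associates with, was higher in CD4 T cell-like cells by 1.26 (adjusted p = 5.36e-05, edgeR).

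T cell-like and natural killer cell-like cells could not be tested as planned, since niacin replicate 1 had 6 natural killer cell-like cells. The log2 ratio of T cell-like to natural killer cell-like levels was 2.15, 1.43 and 2.70 for Ms4a6b, positive in every library, and -0.16, -0.40 and 1.06 for Ms4a4b. A fit with a minimum of 5 cells, added after the data were seen, gave 2.38 ± 0.32 for Ms4a6b (adjusted p = 3.9e-11, edgeR) and 0.41 for Ms4a4b (adjusted p = 0.486, edgeR), with 8.05% of 5688 genes called, 4.82% higher and 3.23% lower in T cell-like cells. Without shared barcodes, Ms4a6b was at 681, 699 and 725 CPM in T cell-like and 141, 668 and 113 CPM in natural killer cell-like cells, where the value of niacin replicate 1 rests on 4 UMIs in 4 cells (exact Poisson 95% interval 182 to 1712 CPM).

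**Figure D2:**
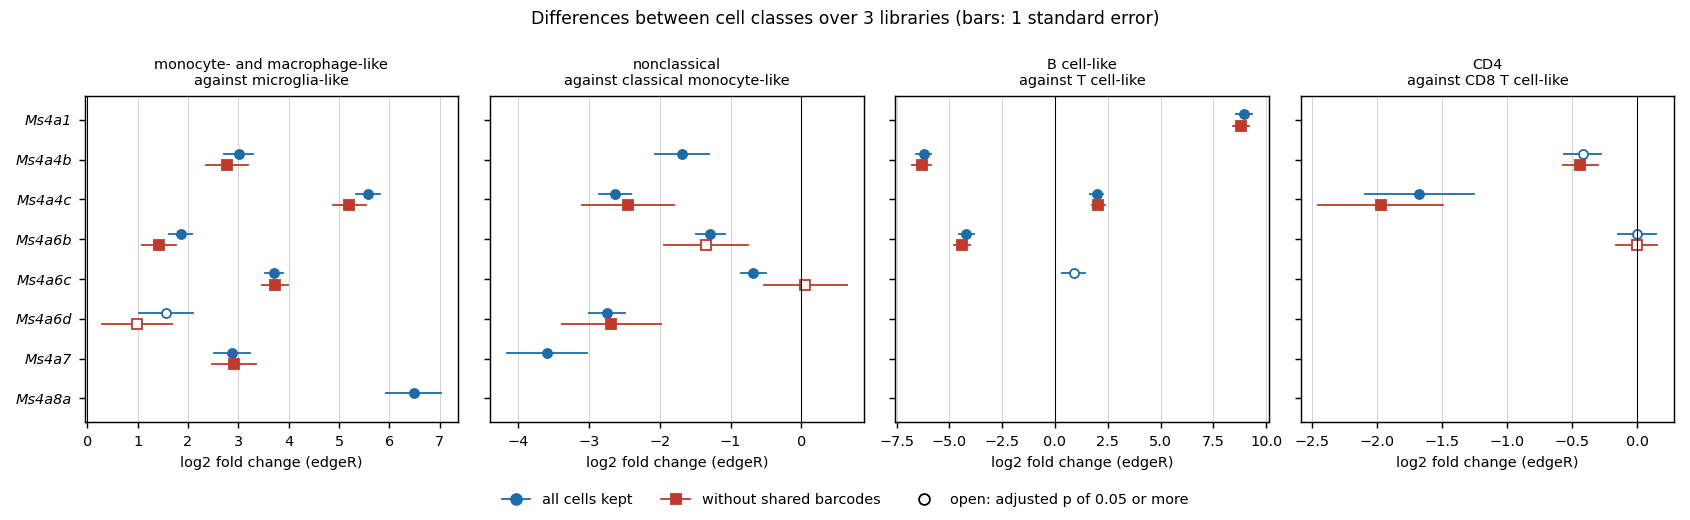
Difference of each tested member between 2 cell classes (log2 fold change, bars 1 SE) in 4 comparisons. Blue circles show all cells, with at least 10 cells per class and library. Red squares show the fits without shared barcodes. In the nonclassical against classical monocyte-like panel the red squares come from the fit added after the data were seen. That fit had under 10 classical cells in each niacin library. Open symbols mark an adjusted p of 0.05 or more. In the monocyte- and macrophage-like against microglia-like panel all members lie above 0, for all cells from 1.56 for Ms4a6d to 6.48 for Ms4a8a. Without shared barcodes Ms4a6d lies lower there. In the B cell-like against T cell-like panel Ms4a1 lies at 8.96 and Ms4a4b at -6.22 for all cells.

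Between the peripheral myeloid cells and the resident microglia-like cells, 6 of the 7 members tested were higher on the monocyte and macrophage side. Ms4a8a was higher by 6.48 ± 0.55 (adjusted p = 0.000226), a size that rests on 3, 0 and 1 UMIs in microglia-like cells. Of the members with more UMIs on both sides, Ms4a4c was at 5.57 ± 0.24 (adjusted p = 4.61e-05), Ms4a6c at 3.71 ± 0.18 (adjusted p = 5.45e-05), Ms4a4b at 3.004 ± 0.29 (adjusted p = 0.000379), Ms4a7 at 2.87 ± 0.36 (adjusted p = 0.00094) and Ms4a6b at 1.85 ± 0.23 (adjusted p = 0.001; edgeR, log2 scale). Ms4a6d, at 1.56 ± 0.54, did not pass (adjusted p = 0.0512, edgeR), and Ms4a1 was too low to be tested. Of all 10264 genes, 46.9% were called, 23.6% higher and 23.3% lower, with a median of -0.08 against 3.004 over the 7 members. The joined class was a different mixture in each library, with 263 classical and 27 nonclassical monocyte-like cells of 342 in the vehicle library but 103 and 70 of 188 in niacin replicate 1 and 108 and 65 of 187 in niacin replicate 2.

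The values by library show how wide these gaps were. Ms4a4c stood at 972, 289 and 399 CPM on the monocyte and macrophage side against 33.0, 6.7 and 7.4 CPM in microglia-like cells. Ms4a6c stood at 1236, 938 and 1008 CPM against 130.4, 82.5 and 79.5 CPM. The groups did not overlap for either gene. Ms4a6d stood at 766, 175 and 196 CPM against 95.3, 133 and 127 CPM, again without overlap, but its margin was narrow in the niacin libraries. Without shared barcodes Ms4a4c (5.20), Ms4a6c (3.73), Ms4a7 (2.92), Ms4a4b (2.78) and Ms4a6b (1.43) were still called, Ms4a6d was at 0.98 (adjusted p = 0.32, edgeR), and Ms4a8a no longer passed the filter on low counts. In the niacin libraries Ms4a6d then lay below its microglia-like level (90.9 and 96.5 CPM against 119 and 122 CPM). Beside the values of Ms4a4b in the joined class, at 70.7, 37.4 and 30.8 CPM, the T cell markers, of which 6, 4 and 4 of 6 were detected (Bcl11b and Trac were at 0 in both niacin libraries), summed to 19.4, 6.24 and 20.5 CPM, and their part in this result was not tested.

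Among the partner genes, Trem2, a lipid-sensing receptor of microglia, had the opposite direction to the members, at -4.03 ± 0.23 (adjusted p = 6.69e-05, edgeR). Cd40 (4.32), Tnfrsf18 (3.66), the Fc receptor gamma chain Fcer1g (1.00) and Tyrobp (0.64) were higher in monocyte- and macrophage-like cells, and Cd22 was at -0.20 (adjusted p = 0.708, edgeR). In all, 4 of 6 partner genes tested were higher and 1 lower. Without shared barcodes the call of Tyrobp was lost (adjusted p = 0.1, edgeR).

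Within the monocytes, the members fell from classical to nonclassical monocyte-like cells to unequal degrees. All 6 members tested were lower in nonclassical cells, against 22.1% of 5106 genes called, 11.6% lower and 10.5% higher, with a median of -2.16 over the members and -0.02 over all genes. Most classical cells of the niacin libraries were shallow copies of barcodes deeper in the vehicle library, as given above, which bears on each p here. Ms4a6d fell by 2.75 ± 0.25 (adjusted p = 1.49e-06), Ms4a4c by 2.63 ± 0.23 (adjusted p = 8.88e-07), Ms4a4b by 1.69 ± 0.38 (adjusted p = 0.00435), Ms4a6b by 1.29 ± 0.21 (adjusted p = 0.00029) and Ms4a6c by 0.68 ± 0.17 (adjusted p = 0.0094; edgeR, log2 scale). Ms4a7 fell by 3.60 ± 0.56 (adjusted p = 0.000225, edgeR), a size set by the 0, 5 and 1 UMIs that nonclassical cells held. Ms4a6c, with the smallest difference of the 6, was at 1342, 1247 and 1305 CPM in classical and 1030.1, 804 and 805 CPM in nonclassical cells. Ms4a4c was at 1119.8, 660.0 and 759.5 CPM against 142, 134 and 142 CPM.

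Without the shared barcodes the comparison had few cells. Only 3 and 9 classical monocyte-like cells of the niacin libraries remained, and a fit on those, added after the data were seen, called 2 of the 4 members it could test, Ms4a4c at -2.45 (adjusted p = 0.00419) and Ms4a6d at -2.68 (adjusted p = 0.00336; edgeR). Ms4a6b was at -1.34 (adjusted p = 0.183) and Ms4a6c at 0.06 (adjusted p = 0.981; edgeR). In the vehicle library, where 153 classical cells remained, the levels without shared barcodes were 1114 CPM for Ms4a4c and 1225 CPM for Ms4a6c in classical and 169 and 992 CPM in nonclassical cells. In niacin replicate 1, on 3 classical cells, Ms4a6b kept its direction (225 in nonclassical against 522 CPM in classical cells), and 5 members went the other way, with Ms4a6c at 174 against 817 CPM in nonclassical cells and Ms4a4c, Ms4a6d, Ms4a7 and Ms4a4b at 0 against 154, 70.7, 25.7 and 19.3 CPM. In niacin replicate 2, on 9 classical cells, Ms4a4c was at 1079 against 134 CPM and Ms4a6c at 904 against 863 CPM. Over all cells, among partner and family genes, Cd40 (-2.31), Trem2 (-1.70), Tmem176a (-2.78) and Tmem176b (-3.02) were lower in nonclassical cells and Ms4a4a was at -0.45 (adjusted p = 0.513, edgeR). Of these genes the fit without shared barcodes gave a value for Tmem176b alone (-4.04, adjusted p = 4.18e-07, edgeR). Neutrophil markers also stood in the classical class, summing to 128, 1346 and 940 CPM, and their part in these results was not tested.

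Dendritic-like cells, at 15, 4 and 7 cells, gave values only. In the vehicle library Ms4a6c was at 888 CPM and Ms4a4c at 511 CPM, and over all cells Ms4a4c, Ms4a6b, Ms4a6c, Ms4a6d and Ms4a7 were lower than in classical monocyte-like cells in all 3 libraries. Without shared barcodes this did not hold in niacin replicate 1, where Ms4a4c was at 599 against 0 CPM, Ms4a6b at 899 against 522 CPM and Ms4a6c at 749 against 174 CPM, on 2 dendritic-like and 3 classical monocyte-like cells.

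Ms4a7 and Ms4a8a were the least abundant myeloid members, with 550 and 177 UMIs in cells kept. Ms4a7 had its highest level in border-associated macrophage-like cells, although only 2, 3 and 5 such cells were found. They held 6, 5 and 49 UMIs, which is 10.9% of all, at 1119 CPM (exact Poisson 95% interval 410.5 to 2435), 548 CPM (178 to 1279) and 2055 CPM (1520 to 2716). In classical monocyte-like cells Ms4a7 was at 136, 52.8 and 49.3 CPM and in microglia-like cells at 22.9, 1.7 and 6.2 CPM, and no UMI was found in T cell-like cells, where 3 counts would be 2.87, 4.35 and 3.16 CPM. Ms4a8a, a macrophage gene of tumors and inflamed tissue, was found mostly in the monocyte and macrophage classes, which held 159 of its 177 UMIs (89.8%). Classical monocyte-like cells held 107, 14 and 8 UMIs, at 62.6, 92.4 and 26.3 CPM, macrophage-like cells of the vehicle library were at 68.9 CPM, and the 2532 microglia-like cells held 4 UMIs. B cell-like, neutrophil-like and choroid plexus-like cells had none.

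Single cells of some classes carried several members at once. Over all cells of at least 1000 UMIs, thinned to that depth, 15.3%, 9.53% and 8.08% had 2 members and 14.0%, 1.11% and 1.92% had 3 or more. After thinning to 1000 UMIs, 90.0%, 90.0% and 80.6% of classical monocyte-like cells had a UMI of at least 1 member, and 50.7%, 25.0% and 30.6% had 3 or more, with a maximum of 6. T cell-like cells had a member in 80.3%, 81.5% and 87.5% of cells, B cell-like cells in 66.7%, 56.7% and 67.4%, nonclassical monocyte-like cells in 57.1%, 65.6% and 61.2%, microglia-like cells in 24.5%, 27.0% and 25.6%, and choroid plexus-like cells in 2.33%, 0.775% and 2.56%. The classical class counted 221, 20 and 36 cells here, because 42, 83 and 72 shallower cells were left out, so its shares in the niacin libraries rest on few cells.

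**Figure D3:**
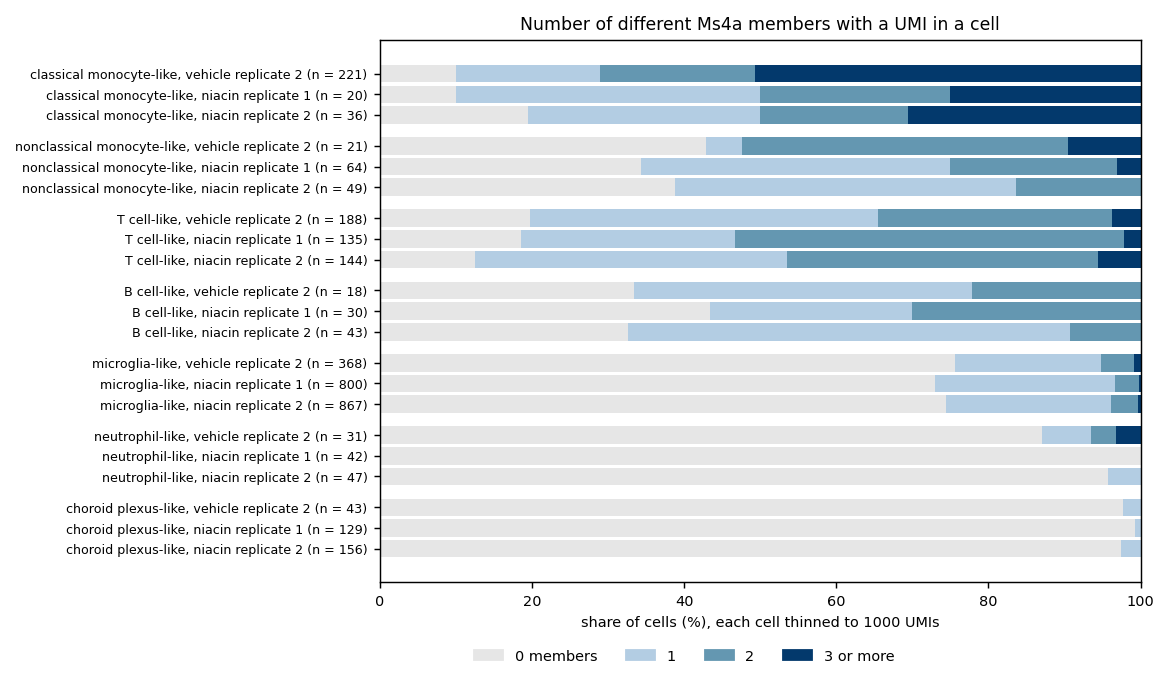
Share of cells (percent, axis from 0) with a UMI of 0, 1, 2 or 3 and more members after every cell was thinned to 1000 UMIs, by class and library. Classical monocyte-like cells reach the highest numbers per cell (50.7% with 3 or more in the vehicle library), T cell-like cells mostly carry 1 or 2, and choroid plexus-like cells are nearly empty.

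Ms4a4b and Ms4a6b were found together in 55, 67 and 63 T cell-like cells (29.3%, 49.6% and 43.8%), where independent detection at the shares measured would give 52.3, 57.6 and 58.9 cells. In the classical monocyte-like cells of the vehicle library, Ms4a4c and Ms4a6c were found together in 88 of 221 cells (39.8%), where independence would give 73.6. The counts were thus near or somewhat above what the single shares give, and they share the depth and class of each cell. In microglia-like cells, of which 9.2%, 6.8% and 4.8% had Ms4a6c and 10.3%, 11.2% and 12.2% had Ms4a6b, members were found mostly singly.

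Microglia-like cells expressed the Ms4a6 genes and little of the rest. They held 37.8% of all Ms4a6d UMIs, 26.4% of Ms4a6b and 17.5% of Ms4a6c, each less than their 45.8% share of the cells kept. Ms4a6d was at 95.3, 133 and 127 CPM in them against 94.4, 76.8 and 68.7 CPM in nonclassical monocyte-like cells. In the vehicle library these values differed by less than the counting error, and without shared barcodes the microglia-like level there was the lower one (75.9 against 105.5 CPM). A small subset planned as activated microglia, defined by at least 2 detected genes among Cst7, Ch25h, Cxcl13, Lpl and Itgax in cells of at least 2000 UMIs, counted 13, 3 and 6 cells, too few to test. Ms4a6c was at 309, 249 and 743 CPM in it against 105, 80.1 and 74.8 CPM in the other microglia-like cells, and Ms4a6d at 151, 349 and 305 CPM against 85.7, 134 and 129 CPM, higher in all 3 libraries for both genes. Ms4a6b was lower in all 3, at 67.9, 99.7 and 114 CPM against 130.4, 126.6 and 127.6 CPM. Without shared barcodes Ms4a6c was still higher in all 3 (157, 1574 and 366 CPM against 88.5, 71.7 and 66.7 CPM), on 8, 1 and 4 activated cells, but Ms4a6d was lower in niacin replicate 2 (81.3 against 128 CPM) and Ms4a6b higher in niacin replicate 1 (787 against 124 CPM). This subset also differed from the other microglia-like cells in its markers. Microglia markers summed to 2022, 2642 and 2285 CPM in it against 7246, 8508 and 8824 CPM, and macrophage markers, of which 6, 1 and 1 of 6 were detected, to 3169, 49.8 and 1371 CPM against 70.0, 9.51 and 12.3 CPM. Its top 10 genes held no microglia marker and 2 macrophage markers, Saa3 and Gpnmb, so its naming as microglia-like is uncertain, and the part of macrophage RNA in these values was not tested.

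The rest of the family was sparse. Of the 11 other Ms4a symbols in the features, 5 had no UMI in the cells kept, 4 had under 50, and 2 had more. Ms4a2, with 215 UMIs, was at 914, 790 and 646 CPM in basophil- or mast cell-like cells, of which there were 6, 30 and 36. Ms4a4a, with 152 UMIs, was at 32.8, 39.6 and 52.6 CPM in classical and 47.2, 30.7 and 26.6 CPM in nonclassical monocyte-like cells against 0.8, 0 and 0.6 CPM in microglia-like cells (monocyte- and macrophage-like against microglia-like 6.39 ± 0.52, adjusted p = 0.000204, edgeR). The related Tmem176a and Tmem176b took the opposite direction in that comparison, at -1.42 and -1.95 (adjusted p = 0.000817 and 0.000242, edgeR), with Tmem176b at 317, 556 and 557 CPM in microglia-like cells.

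The niacin libraries are given beside the vehicle library as values, with exact Poisson intervals that cover counting error only. Ms4a4b in T cell-like cells was 1340.3 CPM in the vehicle library and 1715 CPM in both niacin libraries, and without shared barcodes it was 1362, 1900 and 1771 CPM. In CD8 T cell-like cells it was 1656, 2082 and 2120.3 CPM, and 1552, 2349 and 2307 CPM without shared barcodes. The niacin intervals lay above the vehicle interval in each case. In CD4 T cell-like cells Ms4a4b was 1254, 1734 and 1619 CPM, also with both niacin intervals above. Without shared barcodes the CD4 values were 1329, 1802 and 1614 CPM. There the interval of niacin replicate 1 lay above vehicle, and that of niacin replicate 2 overlapped it. Beside this, CD8 cells made up 43 of 199, 75 of 166 and 70 of 181 T cell-like cells, and the summed T cell markers in that class were 3798, 5445 and 5942 CPM. Their part in the difference was not tested. Ms4a6b in T cell-like cells had overlapping intervals.

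In microglia-like cells, Ms4a6d was higher in the niacin libraries (95.3, 133 and 127 CPM; 75.9, 119 and 122 CPM without shared barcodes) and Ms4a4c lower (33.0, 6.7 and 7.4 CPM; 23.5, 6.2 and 6.5 CPM without shared barcodes), both beyond the counting intervals. Ms4a4c moved likewise in choroid plexus-like cells, which should lack it, at 54.9, 1.82 and 1.10 CPM, but there on 1, 1 and 0 UMIs without shared barcodes. Microglia markers in these cells summed to 6332, 8197 and 8365 CPM, classical monocyte markers to 188, 27 and 25 CPM and macrophage markers to 252, 11 and 34 CPM, and their part was not tested. Trem2 in microglia-like cells was 1201, 2010 and 1964 CPM. The vehicle library also held all 12 Ms4a6d UMIs of neutrophil-like cells (89.2 CPM). Ms4a1 in B cell-like cells was lower in the vehicle library, at 671 CPM (511 to 865) against 1133 CPM (977 to 1307) and 1285 CPM (1143 to 1441), but without shared barcodes the values were 1076, 1392 and 1319 CPM with overlapping intervals. Ms4a6c in microglia-like cells, at 130.4, 82.5 and 79.5 CPM, likewise overlapped between vehicle and niacin replicate 1 without shared barcodes. In the joined monocyte- and macrophage-like class, classical markers summed to 7367, 4618 and 5330 CPM and nonclassical markers to 329, 3041 and 2444 CPM, so treatment and class mixture cannot be told apart for Ms4a4c and Ms4a6d there. Within classical monocyte-like cells alone Ms4a6d was at 848, 429 and 368 CPM and Ms4a4c at 1119.8, 660.0 and 759.5 CPM, with both niacin intervals below vehicle, but nearly all of those niacin cells had shared barcodes.

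**Figure D4:**
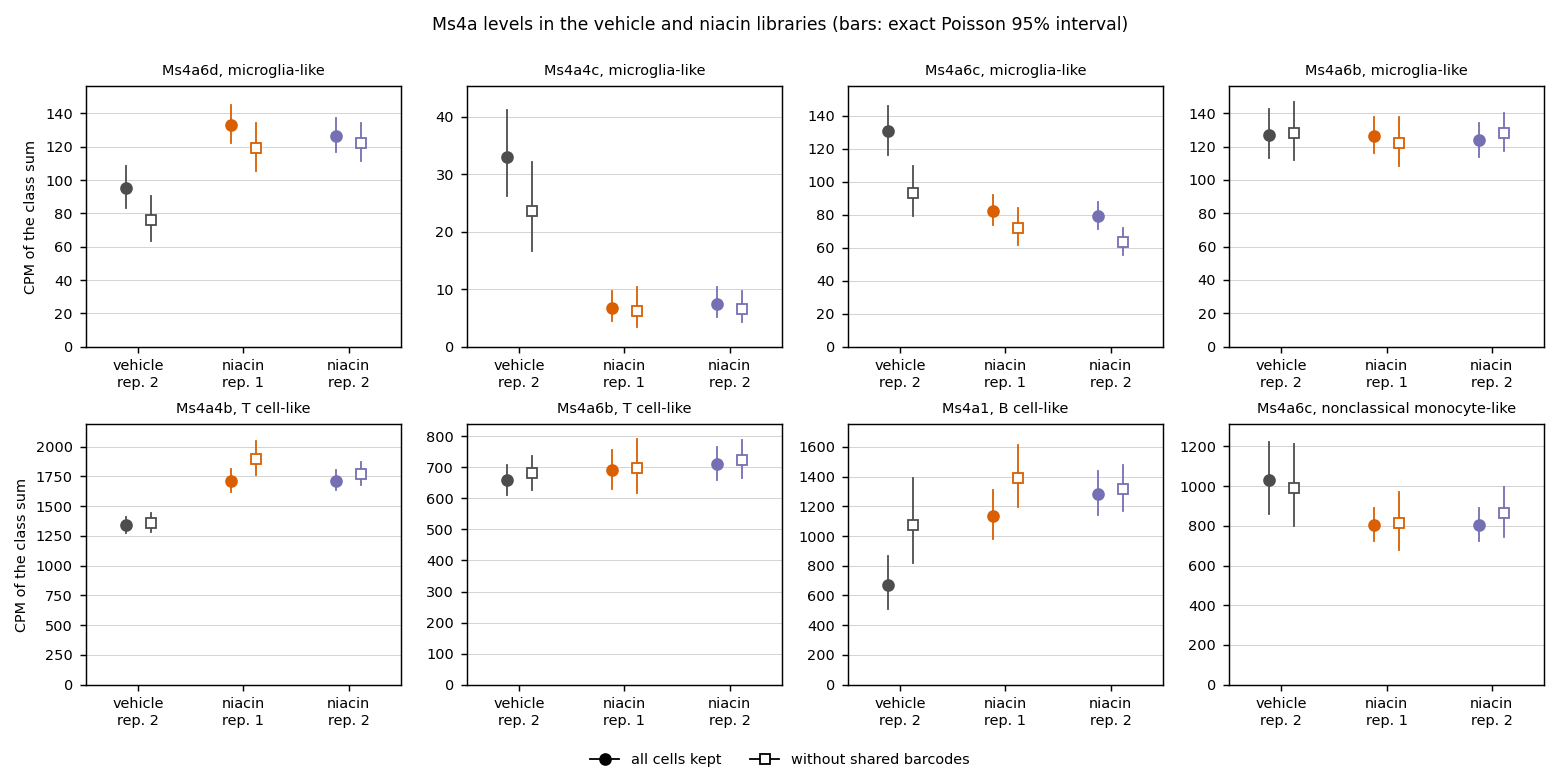
Level of members in selected classes (CPM, linear axes from 0) in the vehicle library and the 2 niacin libraries, with exact Poisson 95% intervals of the counts, for all cells (filled) and without shared barcodes (open). Ms4a4b in T cell-like cells and Ms4a6d in microglia-like cells lie higher in both niacin libraries with either set of cells, whereas the gap of Ms4a1 in B cell-like cells, 671 against 1133 and 1285 CPM, closes to overlapping intervals without shared barcodes.

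The members' patterns were last set beside the 10807 genes of at least 100 UMIs by the correlation of log2(CPM + 10) over 30 points, each a class of at least 10 cells in a library, from 13 classes. Border-associated macrophage-like cells, in which Ms4a7 was highest and Ms4a8a had no UMI, were too few to enter. Points of a library share its depth and points of a class its cells, so these values describe likeness only. Ms4a1 was most like Vpreb3 and Fcmr (Pearson r of 0.988 for each), both B cell genes. Ms4a4b was most like the T cell kinase gene Zap70 (r = 0.921) and the chemokine gene Ccl5 (r = 0.913), and Ms4a6b like Epsti1 (r = 0.885). Ms4a4c was most like Cd40 (r = 0.879) and Ifi209 (r = 0.878), Ms4a6c like Gpr35 (r = 0.913), Ms4a6d like the high-affinity Fc receptor gene Fcgr1 (r = 0.911), Ms4a7 like the phagocytic receptor gene Axl (r = 0.922) and Ms4a8a like Tfec (r = 0.942). Within the family, Ms4a6c and Ms4a6d (r = 0.863), Ms4a7 and Ms4a8a (r = 0.862) and Ms4a4c and Ms4a6c (r = 0.826) were most alike, Ms4a4b was at 0.718 with Ms4a6b and 0.288 with its neighbour Ms4a4c, and Ms4a1 ranged from -0.209 to 0.221 with the others.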

How the data were processed

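Droplet 3′ single-cell RNA sequencing of 3 pooled libraries was analysed. Per the labels and the study's methods, the authors used Cell Ranger 3.1 with STAR on mm10, and the deposited UMI counts per gene and barcode were used unnormalized. The 8 members and all gene lists were chosen with earlier results of these data known. Cells of 200 or more genes and no more than 20% mitochondrial UMIs took the class with the most markers detected (at least 2 of 6; 16 lists); no doublet caller was run. UMIs were summed per library and class and given as CPM with exact Poisson 95% intervals. Classes with at least 10 cells in each library were compared by edgeR 4.0.16 (R 4.3.3; quasi-likelihood, TMM, filterByExpr, Benjamini-Hochberg adjustment over all genes tested, threshold 0.05), with the library as a block because both classes come from the same pool. Replicates are these 3 libraries, vehicle and niacin together. Shares used cells thinned to 1000 UMIs with exact binomial (Clopper-Pearson) intervals. A floor is 3 counts. Intervals and floors cover counting error only. The 8 members were always named, as were other Ms4a genes and Tmem176a and Tmem176b with at least 50 UMIs, fixed partner genes, and the 3 genes most like each member. The 15 planned and 3 added alternatives included DESeq2 1.42.0. Of 7 planned comparisons 4 were tested, and 3 gave values only. In simulated counts, 78.6%, 54.9%, 48.7% and 25.8% of 2-fold changes were recovered for the monocyte- and macrophage-like, nonclassical, CD4 and B cell-like comparisons. Of 4-fold changes, 100%, 93.3%, 97.4% and 84.6% were recovered, and 4.81%, 7.64%, 0.877% and 7.27% of calls were false. These counts were drawn independently for each class and library at a fixed dispersion. They held no shared barcodes, no genes of low level and few changed genes, so the rates need not hold for the tests here. Clec7a is not analysed here.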

Additional observations from a re-analysis of the deposited data

Results flagged for a closer look

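The difference of Ms4a6b between CD4 and CD8 T cell-like cells had opposite signs in the vehicle and the niacin libraries. The log2 ratio of CD4 to CD8 was -0.0686 in vehicle replicate 2 and 0.0789 and 0.175 in niacin replicates 1 and 2. With 1 vehicle library, whether the ratio differs between treatments was not tested, and over the 3 libraries the difference was -0.01 ± 0.14.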

How the results depend on the processing

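Leaving out cells with shared barcodes, together with a minimum of 3 cells per class, gave 2 calls among the 4 members tested between nonclassical and classical monocyte-like cells, against 6 of 6, with Ms4a6c at 0.055 (adjusted p = 0.981, edgeR); at 10 cells neither that fit nor the one on the deepest copy of each barcode could be run. In CD4 against CD8 T cell-like cells, where 1 member was called, 2 were called without shared barcodes and without a filter on low counts, and 0 with DESeq2, without the replicate block and with thinned cells; leaving out 1 library gave 0 to 2, with 0 without niacin replicate 2 and 2 without vehicle replicate 2. Ms4a6b in that comparison turned to 1.87452e-05 without the replicate block and, with 1 library left out, ran from -0.0719 (without niacin replicate 2) to 0.0668 (without vehicle replicate 2), and Ms4a6c in B cell-like against T cell-like cells likewise ran from -1.41 (without niacin replicate 1) to 1.41 (without vehicle replicate 2). Without the replicate block, 7, 5 and 4 members were called in the monocyte- and macrophage-like, nonclassical and B cell-like comparisons. Leaving out 1 library gave 4 to 7 calls between the monocyte classes (4 without niacin replicate 1), 7 in each case against microglia-like cells and 4 in each case between B cell-like and T cell-like cells. Of the log2 fold changes recomputed over all alternatives, 247 kept direction and call, 14 passed the threshold newly, 9 lost it and 4 reversed. Depth limited Ms4a8a, Ms4a1 outside B cell-like cells, and every class of under 10 cells.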
